A study of Mus musculus with 6 samples.

Results

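Complement genes were followed in the hippocampus of mice with IκBα deleted in the neural lineage of the brain. The genes comprised 4 initiators of the classical pathway (C1qa, C1qb, C1qc and C1ra), 2 receptors (C3ar1 and C5ar1) and 2 inhibitors (Cd55 and Serping1). They were chosen by name, with earlier results of these data known. Every probe set whose only symbol in the platform annotation was one of these 8 was taken. This gave 15 of the 34945 probe sets with a single symbol, for 8 of 18193 genes. A further 2 probe sets that list a second gene beside C1ra or Cd55 were left out. Total RNA came from animals aged 2 to 3 months and was hybridised to Affymetrix mouse expression arrays, 1 array per animal. The 3 IκBα-deficient animals (IκBα fl/-;Nestin-Cre) carried a floxed and a null allele together with the recombinase, which is active in the neural lineage. The 3 littermate controls (IκBα fl/-) carried the same alleles without Cre, so animals of both groups had 1 null allele in every cell. The design text describes the animals as pairs, but no label says that the repeat numbers mark them. Values are RMA log2 values, given per array in the order of the biological repeats, and differences are IκBα-deficient minus control with the standard error (SE) of the moderated fit in limma.

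Complement is a chain of plasma and cell-surface proteins that tags targets for removal. C1q, built from the A, B and C chains, recognises the target and activates the proteases C1r and C1s, which cleave further components. Fragments released on the way signal through the C3a and C5a receptors, while membrane and plasma inhibitors restrain the cascade. In the brain, microglia are the main source of C1q, and C1q has been linked to the removal of synapses. Microglia do not arise from the neural lineage in which Nestin-Cre acts. NF-κB, which IκBα holds back, is a known inducer of several complement genes in other tissues.

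Of the other facts of the arrays, 3 bear on what follows. Nfkbia, the targeted gene, was lower on all 3 IκBα-deficient arrays in each of its 5 probe sets except 1420089_at, where the groups overlapped. IκBα-deficient array 2 stood apart: its 3′ control probe sets for Gapdh and β-actin exceeded the 5′ ones by 2.02 on the log2 scale, against 0.65 and 0.61 on the other IκBα-deficient arrays and 0.56 to 0.73 on the controls. Its meninges marker mean was 8.73, against 7.63 and 7.70 on the other IκBα-deficient arrays and 7.08 to 7.72 on the controls. All 11 measured choroid plexus markers and all 12 meninges markers were higher in IκBα-deficient animals, with choroid plexus means of 7.67 to 8.57 in IκBα-deficient and 5.71 to 7.80 in control animals. Control array 1 held the 7.80. For 8 markers of hippocampal neurons, the means were 10.87 to 10.88 in IκBα-deficient and 10.89 to 10.96 in control animals. Every IκBα-deficient mean thus lay below every control, though 4 of the 8 markers were higher. No other brain region was compared, so these means do not identify the region dissected. The genotype differences of the 15 complement probe sets are therefore given with and without IκBα-deficient array 2.

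No complement probe set passed the threshold. Of the 15, 0 had an adjusted p under 0.05 over all probe sets (limma, Benjamini-Hochberg), against 0.0114% of all those tested, all of which were Nfkbia. At an unadjusted p under 0.05 there were 4 of 15, beside 3.82% of all probe sets. The 3 IκBα-deficient arrays lay wholly above or wholly below the controls for 5 of 15, beside 8.91% of all probe sets. Of these, 4 lay above (5.09% of all) and 1 below (3.82% of all). Differences were positive for 12 of 15, beside 49.8% of all, with a median of 0.10 for the complement probe sets and -0.00049 for all. Without IκBα-deficient array 2, 0 of 15 passed the threshold (0.00572% of all), 14 of 15 were positive (48.4% of all), 7 of 15 were separated (18.9% of all), and 4 of 15 had an unadjusted p under 0.05 (4.49% of all). Probe sets of 1 gene share a transcript, so these counts do not stand for 15 independent genes. With the brightest probe set of each gene, 5 of 8 were positive (52.6% of all genes), with a median of 0.037 beside 0.0058. Of these 8, 1 higher and 1 lower had an unadjusted p under 0.05 (3.95% of all genes, both directions). Without IκBα-deficient array 2, 7 of 8 were positive (48.0% of all genes). The genes were chosen with earlier results of these data known, so all these shares are a description. In bulk tissue a smaller number of cells of a type and less RNA per cell cannot be told apart.

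**Figure D1:**
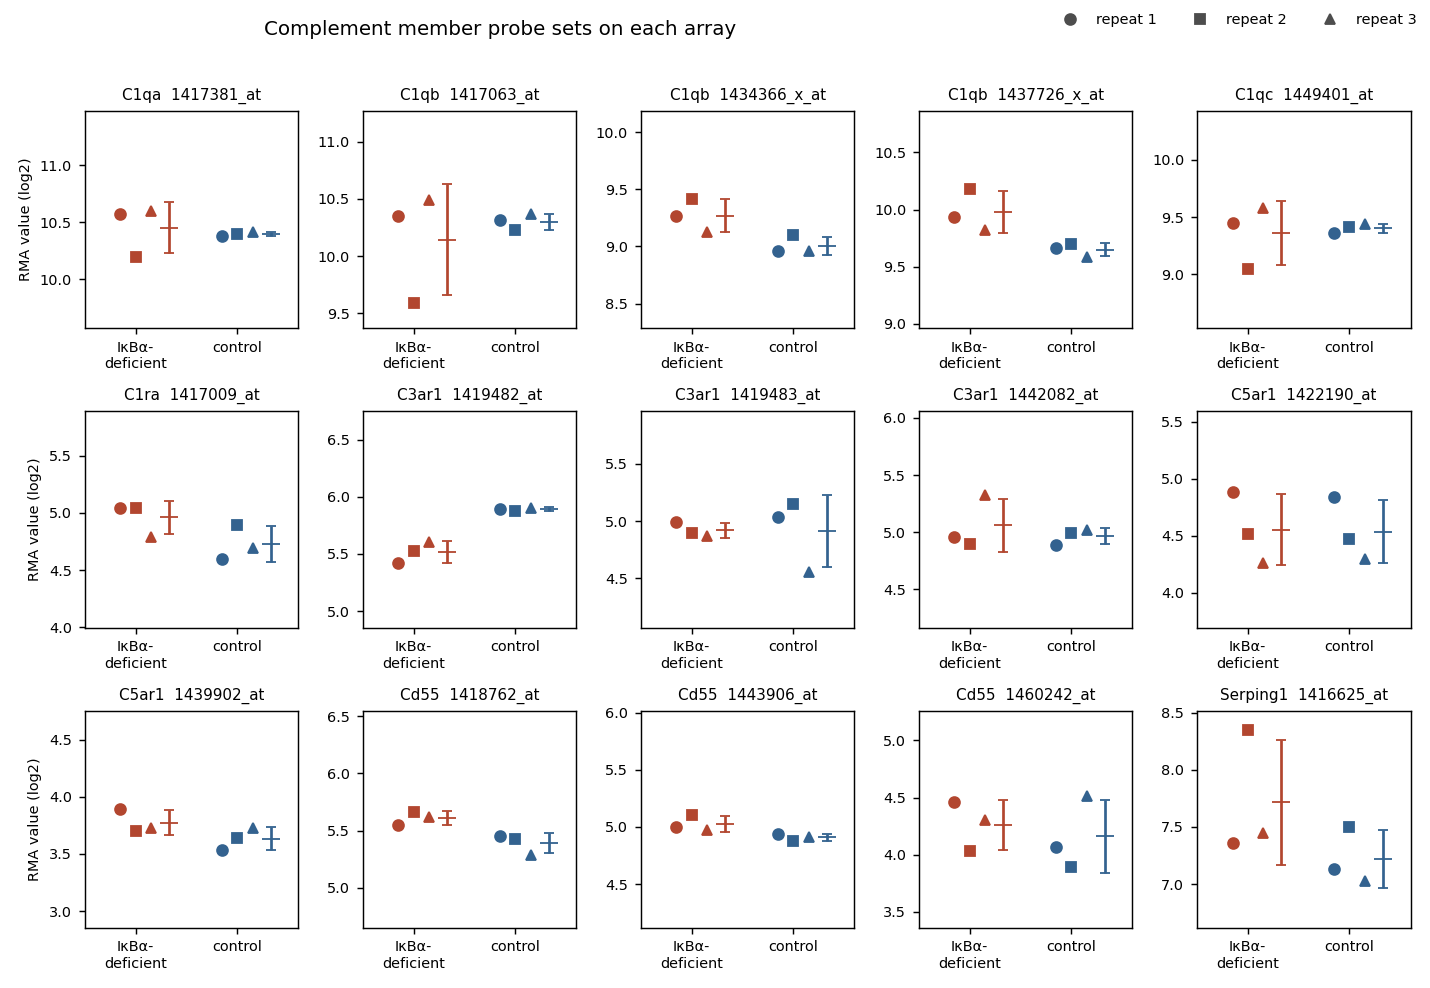
RMA values (log2, vertical axes of equal span) of the 15 complement probe sets on the 3 IκBα-deficient (red, left) and 3 control (blue, right) arrays, with mean and SD as bars and the repeat number as symbol. The square of IκBα-deficient array 2 lies below the other arrays for C1qa, C1qc and C1qb 1417063_at and above them for both C1qb x_at probe sets and Serping1.

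The C1q chains split by probe set. C1qa, the A chain, had 10.57, 10.19 and 10.60 on IκBα-deficient arrays, against 10.38, 10.40 and 10.42 on control arrays. Arrays 1 and 3 of the IκBα-deficient animals lay above every control and array 2 below every control, so the groups overlapped. The difference was 0.055 ± 0.11 (SE), with a 95% interval of -0.21 to 0.32 (limma, adjusted p = 0.987). C1qc, the C chain, had 9.45, 9.05 and 9.58 in IκBα-deficient animals and 9.36, 9.41 and 9.44 in controls. It followed the same order as C1qa, with array 2 lowest, and differed by -0.044 ± 0.13 (SE, interval -0.35 to 0.27).

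C1qb, the B chain, was read by 3 probe sets that did not point one way. Probe set 1417063_at had 10.35, 9.59 and 10.49 in IκBα-deficient animals, against 10.31, 10.22 and 10.36 in controls. Its mean difference was -0.16 ± 0.22 (SE), and array 2 alone lay below the controls. Probe set 1437726_x_at had 9.94, 10.18 and 9.82 in IκBα-deficient animals, against 9.66, 9.70 and 9.59 in controls. Here array 2 was the highest of all 6, and the groups did not overlap. The difference was 0.33 ± 0.10 (SE) or 1.26-fold, with an interval of 0.096 to 0.56, an unadjusted p of 0.0121 and an adjusted p of 0.985 (limma). Probe set 1434366_x_at behaved likewise, at 9.27, 9.41 and 9.13 in IκBα-deficient animals against 8.96, 9.10 and 8.96 in controls, a difference of 0.26 ± 0.091 (SE). The suffix x marks probe sets whose probes can match other transcripts. With the mean of its 3 probe sets, C1qb differed by 0.15, where the brightest probe set alone gave -0.16.

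The disagreement sat on 1 array. The value of 1437726_x_at minus that of 1417063_at was 0.59 on IκBα-deficient array 2, but -0.42 and -0.67 on the other IκBα-deficient arrays and -0.65, -0.52 and -0.78 on controls. The 2 x_at probe sets kept a nearly constant distance, 0.67, 0.76 and 0.69 in IκBα-deficient animals against 0.71, 0.60 and 0.62 in controls. The array with the divergent probe sets was the one with the widest 3′ to 5′ gap, and the part of this gap in the result was not tested.

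Without IκBα-deficient array 2, all 5 C1q probe sets were higher in the IκBα-deficient animals. The differences were 0.18 for C1qa (interval 0.034 to 0.34), 0.11 for C1qc (-0.065 to 0.29), 0.12 for C1qb 1417063_at (-0.071 to 0.31), 0.23 for 1437726_x_at (0.051 to 0.41) and 0.19 for 1434366_x_at (-0.0045 to 0.39). These are 1.08-fold to 1.17-fold, and none passed the threshold (limma, adjusted p = 1.00 for each). With the 3′ to 5′ gap as a covariate on all 6 arrays, the differences were nearly the same, from 0.11 for C1qc to 0.23 for 1437726_x_at. The gap was 2.02 on IκBα-deficient array 2 and at most 0.73 on every other array. The covariate therefore acts much like leaving that array out, and the likeness of the 2 results is no separate check.

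**Figure D2:**
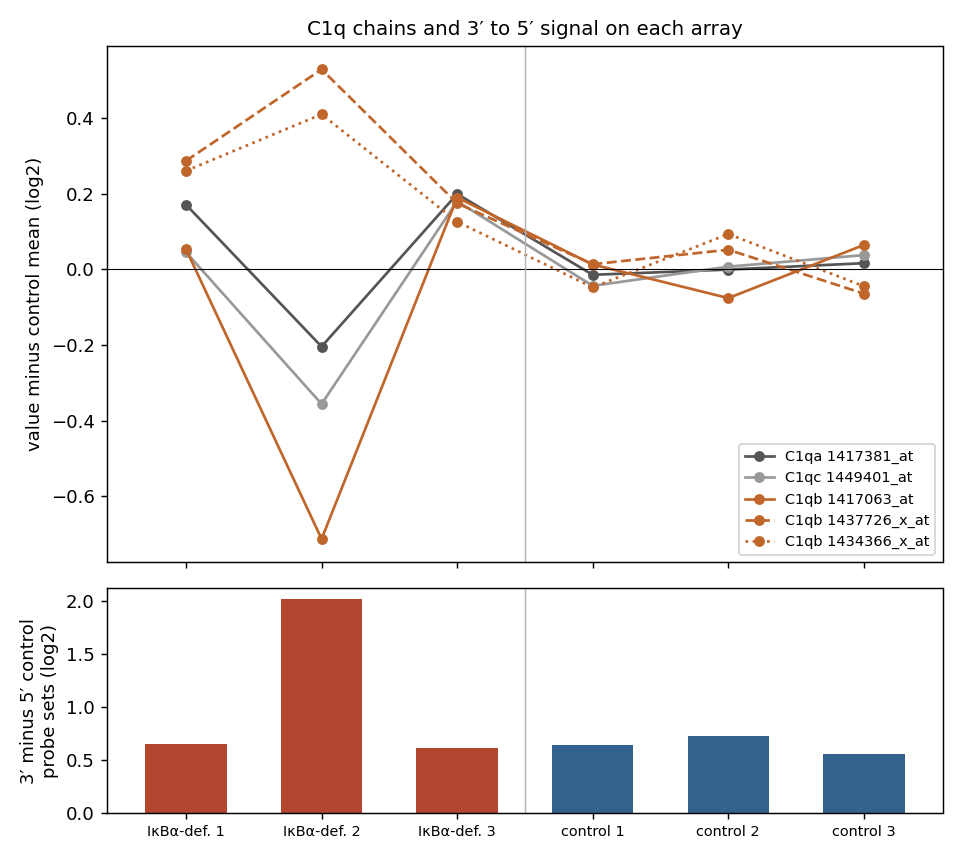
Top: the 5 C1q probe sets on each array as value minus the control mean (log2), IκBα-deficient arrays 1 to 3 on the left and controls on the right. Bottom: 3′ minus 5′ control probe sets of each array (log2, mean of Gapdh and β-actin), which is 2.02 on IκBα-deficient array 2 where the C1q lines part, and at most 0.73 on every other array.

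Microglia markers were set beside C1q because microglia are its main source. The mean of 11 measured microglia markers was 8.64, 8.47 and 8.64 in IκBα-deficient animals, against 8.43, 8.50 and 8.57 in controls, and 7 of 11 were higher in IκBα-deficient animals. Relative to that mean, C1qa stood at 1.93, 1.72 and 1.96 on IκBα-deficient arrays and at 1.96, 1.90 and 1.84 on control arrays, so the groups overlapped. C1qc stood at 0.81, 0.57 and 0.94 on IκBα-deficient arrays, against 0.93, 0.91 and 0.87 on control arrays. With the microglia mean as a covariate, C1qa differed by -0.078 (unadjusted p of 0.448), C1qc by -0.21 (p of 0.0818) and C1qb 1417063_at by -0.44 (p of 0.0311), while 1437726_x_at differed by 0.44 (p of 0.00172), all from limma and none with an adjusted p under the threshold. These fits hold IκBα-deficient array 2, and no covariate was fitted without that array. Leukocyte markers, of which 8 were measured and 6 were among the dimmest 40% of probe sets, had means of 4.94 to 5.10 in IκBα-deficient and 4.997 to 5.08 in control animals.

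Across 10914 genes brighter than the median, the pattern of the 3 C1q chains (mean of the brightest probe set of each) was most like that of Emcn, an endothelial sialomucin (Pearson r = 0.997 over the 6 arrays), followed by the microglial receptor Trem2 (0.995), Eif6, a ribosome assembly factor (0.994), B230217C12Rik (0.994) and the adenylyl cyclase Adcy5 (0.992). Over so few arrays, 763 genes had an r over 0.9 with this pattern, which is dominated by the low value of IκBα-deficient array 2. The likeness is a description of these arrays.

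The C1q genes lie side by side in the mouse genome, in the order C1qb, C1qc and C1qa, and C1qb and C1qc are transcribed in the same direction. RefSeq promoter windows were at hand for 6 of the 8 genes. The 250 bases before the start are shown for C1qb, C1qc and C3ar1. C1qb and C1qc were taken because their probe sets 1417063_at and 1449401_at had a similar pattern over the 6 arrays (r = 0.970, a description). Both probe sets were lowest on IκBα-deficient array 2, at 9.59 and 9.05. The other C1qb probe sets ran opposite to 1449401_at, with r = -0.582 for 1434366_x_at and -0.641 for 1437726_x_at. C3ar1 was taken because it had the smallest p of the complement probe sets. Capitals mark matches to the PU.1 core GAGGAA (PU.1 is a transcription factor of myeloid cells) or to the κB consensus, the site bound by NF-κB. The sequences are from build GRCm38.p6, minus strand, at chr4:136886201-136886450 (C1qb), chr4:136892915-136893164 (C1qc) and chr6:122856158-122856407 (C3ar1).
C1qb: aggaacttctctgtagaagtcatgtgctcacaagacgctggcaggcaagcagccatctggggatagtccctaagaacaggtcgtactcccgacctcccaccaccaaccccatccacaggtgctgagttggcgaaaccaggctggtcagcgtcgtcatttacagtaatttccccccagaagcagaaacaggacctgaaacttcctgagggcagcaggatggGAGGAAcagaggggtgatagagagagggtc
C1qc: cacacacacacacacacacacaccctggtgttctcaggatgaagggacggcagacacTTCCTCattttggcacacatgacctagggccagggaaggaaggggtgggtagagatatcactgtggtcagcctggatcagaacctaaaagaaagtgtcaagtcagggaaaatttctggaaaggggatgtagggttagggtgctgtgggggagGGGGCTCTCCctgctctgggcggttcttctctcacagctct
C3ar1: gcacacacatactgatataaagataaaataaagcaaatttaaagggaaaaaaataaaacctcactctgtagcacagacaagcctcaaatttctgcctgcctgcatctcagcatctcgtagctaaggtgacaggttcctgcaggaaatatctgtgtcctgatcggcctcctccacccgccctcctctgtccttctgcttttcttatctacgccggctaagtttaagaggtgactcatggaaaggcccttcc

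Both strands were searched. The κB consensus matched once among the 6 promoters, in C1qc, 41 to 32 bases before the start, and 3.9% of all 32851 RefSeq windows of this length hold a match. The PU.1 core matched in C1qb, 30 to 25 bases before the start, and on the other strand in C1qc, 193 to 188 bases before it; 23.3% of all windows hold one. No match overlapped another, and the windows of C1ra, C3ar1, C5ar1 and Cd55 held neither motif.

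C1ra, the protease that C1q activates first, had 5.05, 5.04 and 4.79 on IκBα-deficient arrays, against 4.59, 4.90 and 4.70 on control arrays. IκBα-deficient arrays 1 and 2 lay above every control, and array 3 lay below control array 2. The difference was 0.23 ± 0.11 (SE) or 1.17-fold, with an interval of -0.020 to 0.48 (limma, unadjusted p of 0.0665, adjusted p = 0.985), and 0.19 without IκBα-deficient array 2. C1s1, the partner protease in the C1 complex, had 4.38, 4.54 and 4.51 in IκBα-deficient animals, against 4.45, 4.29 and 4.11 in controls. It differed by 0.20 ± 0.10 (SE), with overlapping groups, and by 0.16 without IκBα-deficient array 2. With the microglia mean as a covariate C1s1 differed by 0.30 (unadjusted p of 0.0170, limma), and with the choroid plexus mean by 0.055. Both probe sets were among the dimmest 40%, where RMA compresses differences.

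C3ar1, the receptor for the fragment C3a, was the complement gene nearest to the threshold, and it was lower. Probe set 1419482_at had 5.42, 5.52 and 5.61 in IκBα-deficient animals, against 5.90, 5.87 and 5.90 in controls. Every IκBα-deficient array lay below every control, and the controls differed by little. The difference was -0.37 ± 0.073 (SE), or 1.30-fold lower, with an interval of -0.54 to -0.20, and the probe set ranked 21 of 34945 by its unadjusted p of 0.00106 (limma, adjusted p = 0.985). It was -0.38 ± 0.079 (SE) without IκBα-deficient array 2 and lay between -0.42 and -0.32 with any 1 array left out. With the microglia mean as a covariate it was -0.37 (unadjusted p of 0.00401).

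The other C3ar1 probe sets did not share this difference. Probe set 1419483_at had 4.99, 4.90 and 4.87 in IκBα-deficient animals, against 5.03, 5.15 and 4.55 in controls, and differed by 0.0071 ± 0.15 (SE). Probe set 1442082_at had 4.96, 4.90 and 5.32 in IκBα-deficient animals, against 4.89, 4.99 and 5.02 in controls, a difference of 0.093 ± 0.12 (SE). These differences were 0.017 and 0.17 without IκBα-deficient array 2. In both the groups overlapped, and their intervals of -0.34 to 0.35 and -0.18 to 0.37 do not reach -0.37. With the mean of the 3 probe sets, C3ar1 differed by -0.091 (unadjusted p of 0.253, limma). All 3 were among the dimmest 40% of probe sets. The genes most like 1419482_at over the 6 arrays were Hsph1, a heat shock protein (r = 0.979), Mvk, an enzyme of sterol synthesis (0.973), N4bp1 (0.968), Inhba, an activin subunit (0.968), and Atp5md (0.966), with 67 genes over 0.9.

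C5ar1, the receptor for C5a, was not distinguishable between the groups. Probe set 1422190_at had 4.88, 4.51 and 4.27 on IκBα-deficient arrays and 4.84, 4.47 and 4.30 on control arrays, so that the spread within each group far exceeded the difference of 0.019 ± 0.18 (SE, interval -0.41 to 0.45). Probe set 1439902_at had 3.90, 3.70 and 3.73 in IκBα-deficient animals, against 3.53, 3.64 and 3.73 in controls, a difference of 0.14 ± 0.086 (SE, interval -0.060 to 0.34). Without IκBα-deficient array 2 the differences were 0.039 for 1422190_at and 0.18 for 1439902_at. Both were among the dimmest 40%, and a change of the size seen for C3ar1 1419482_at lies inside the first interval.

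Cd55, a membrane inhibitor that speeds the decay of the convertases, was higher in its brightest probe set. Probe set 1418762_at had 5.55, 5.67 and 5.62 in IκBα-deficient animals, against 5.45, 5.43 and 5.29 in controls. The groups did not overlap. The difference was 0.22 ± 0.075 (SE) or 1.17-fold, with an interval of 0.045 to 0.40 (limma, unadjusted p of 0.0205, adjusted p = 0.985), and 0.19 without IκBα-deficient array 2. Probe set 1443906_at was also separated, at 4.995, 5.10 and 4.98 in IκBα-deficient animals against 4.94, 4.88 and 4.91 in controls, a smaller difference of 0.12 ± 0.068 (SE). Probe set 1460242_at overlapped, at 4.46, 4.03 and 4.30 in IκBα-deficient animals against 4.07, 3.89 and 4.52 in controls, and differed by 0.10 ± 0.17 (SE). The last 2 differed by 0.076 and 0.22 without IκBα-deficient array 2. All 3 were among the dimmest 40%, and Cd55 has a close paralog, Cd55b, so the signals of the pair may not be fully separate.

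**Figure D3:**
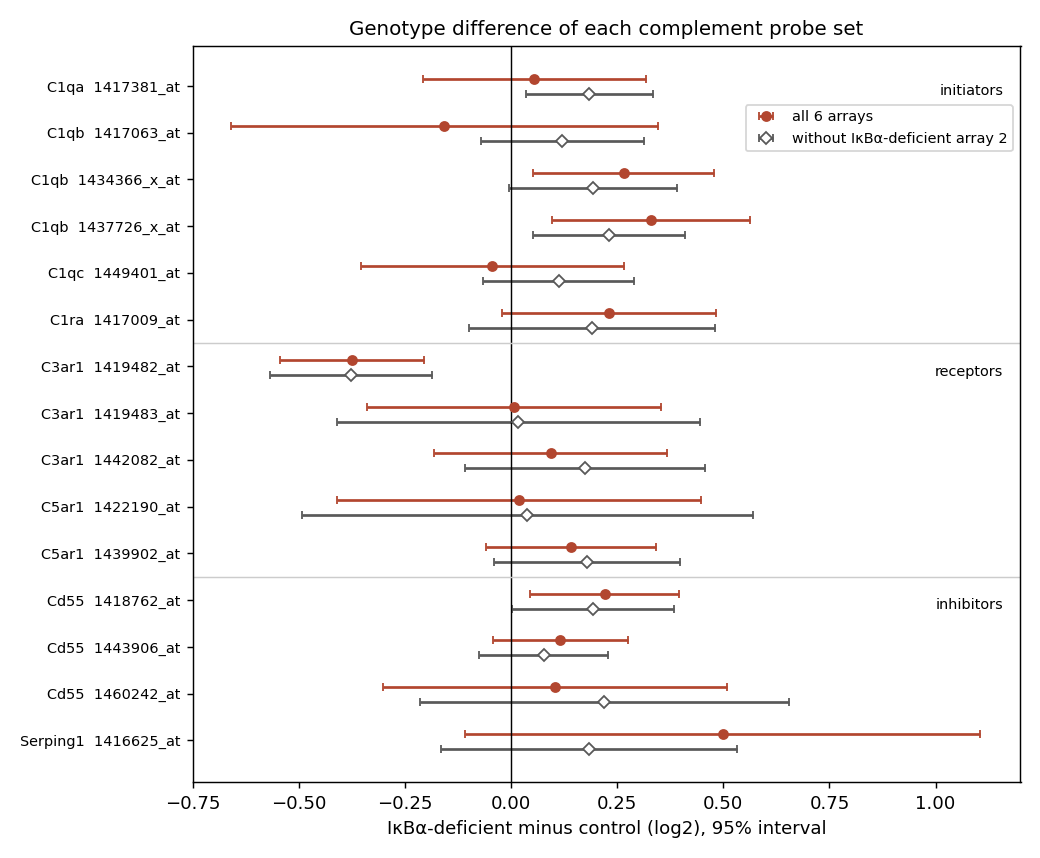
Difference of each complement probe set (horizontal axis, IκBα-deficient minus control, log2, with 95% interval from limma) with all 6 arrays (red) and without IκBα-deficient array 2 (open), grouped by role. C3ar1 1419482_at stands at -0.37 and -0.38, while Serping1 stands at 0.50 and 0.18 and C1qb 1417063_at at -0.16 and 0.12.

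Serping1, the plasma inhibitor of C1r and C1s, had the widest difference and also the widest spread. It had 7.36, 8.35 and 7.45 in IκBα-deficient animals, against 7.13, 7.50 and 7.02 in controls. Array 2 stood far above the rest, and the other IκBα-deficient arrays lay below control array 2. The difference was 0.50 ± 0.26 (SE) or 1.41-fold, with an interval of -0.11 to 1.11 (limma, unadjusted p of 0.0944, adjusted p = 0.985). Without IκBα-deficient array 2 it was 0.18 ± 0.14 (SE), 1.14-fold.

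The order of the arrays for Serping1 was that of the meninges marker mean within each group. That mean was 7.63, 8.73 and 7.70 in IκBα-deficient animals, against 7.55, 7.72 and 7.08 in controls. With this mean as a covariate, Serping1 differed by 0.025 (unadjusted p of 0.826, limma), with the choroid plexus mean by 0.64 (p of 0.167) and with the microglia mean by 0.83 (p of 0.00512), none of them past the adjusted threshold. All 6 pericyte markers were higher as well, with means of 9.20, 9.60 and 9.18 in IκBα-deficient and 9.14, 9.19 and 9.02 in control animals. The 9.60 was IκBα-deficient array 2, and array 3 lay below control array 2. Vtn is both a pericyte marker and a complement regulator of the wider list below. Of 7 endothelium markers 4 were higher, with means of 8.60 to 8.76 in IκBα-deficient and 8.59 to 8.69 in control animals. Which cells the Serping1 signal came from was not tested.

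**Figure D4:**
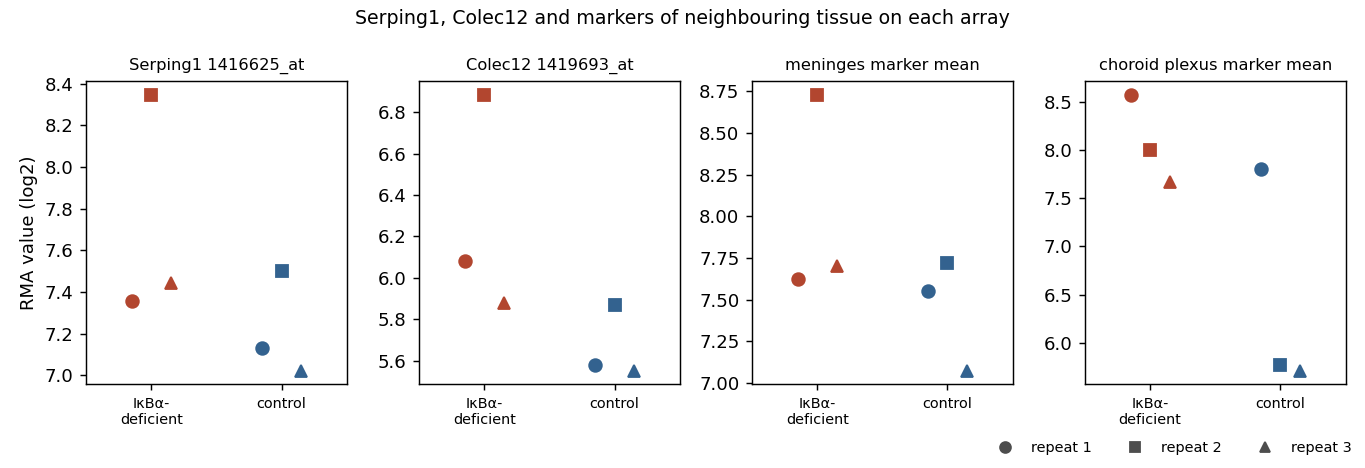
RMA values (log2, separate vertical axes) of Serping1, the collectin Colec12 and the means of the meninges and choroid plexus markers, IκBα-deficient arrays (red) left and controls (blue) right, symbols as repeat numbers. Serping1, Colec12 and the meninges mean are all highest on IκBα-deficient array 2, at 8.35, 6.88 and 8.73, whereas the choroid plexus mean is highest on IκBα-deficient array 1.

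The rest of the complement system was read from 51 further genes, of which 39 had a probe set of their own here, each represented by its brightest. Of these, 24 were higher and 15 lower, beside 52.6% higher over the brightest probe sets of all genes, and the median difference was 0.012, beside 0.0058 for all genes. None passed the threshold (limma, 0.0055% of all genes), 1 had an unadjusted p under 0.05 (3.95% of all) and 2 were separated (9.76% of all). Without IκBα-deficient array 2, 20 of 39 were higher (48.0% of all genes), with a median of 0.0048 beside -0.0041 for all, none passed the threshold (0.0% of all) and 2 had an unadjusted p under 0.05 (4.23% of all). By role, 5 of 8 lectin pathway genes were higher, as were 4 of 6 genes of the terminal components, 3 of 6 receptors and 11 of 15 regulators. Both alternative pathway genes, Cfb and Cfp (named outside the rule given below), were lower, with a median of -0.12, and of -0.21 without IκBα-deficient array 2. In both the groups overlapped, and the intervals with all arrays, -0.50 to 0.18 for Cfb and -0.59 to 0.45 for Cfp, span 0. With the choroid plexus mean as a covariate Cfb differed by -0.17 and Cfp by 0.38. C3 and C4b are not analysed here. Of the 39, 24 were among the dimmest 40%, including all 6 terminal components.

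With all 6 arrays, the single gene with an unadjusted p under 0.05 was Colec12, a membrane collectin that binds microbes and lipoproteins. It had 6.08, 6.88 and 5.88 in IκBα-deficient animals, against 5.58, 5.87 and 5.55 in controls. The groups did not overlap, and IκBα-deficient array 2 was the highest. The difference was 0.61 ± 0.24 (SE) or 1.53-fold (limma, unadjusted p of 0.0370, adjusted p = 0.985). It was 0.31 ± 0.12 (SE) without IκBα-deficient array 2 and, with a covariate, 0.20 (unadjusted p of 0.200) for the meninges mean, 0.70 (p of 0.122) for the choroid plexus mean and 0.91 (p of 0.00260) for the microglia mean. For the 3′ to 5′ gap it was 0.31 (p of 0.0186) and for the vascular mean 0.26 (p of 0.0944, limma). The other gene with an unadjusted p under 0.05 without IκBα-deficient array 2 was C2, a protease of the classical and lectin pathways, named after its values were seen. C2 had 6.17, 6.92 and 6.24 in IκBα-deficient animals, against 6.49, 6.39 and 6.55 in controls, so array 2 lay above every control and the other IκBα-deficient arrays below every control. Its difference was -0.033 ± 0.19 (SE) with all arrays and -0.27 ± 0.077 (SE) without IκBα-deficient array 2 (limma, unadjusted p of 0.0113, adjusted p = 1.00). These C2 values are from its brightest probe set, and with all arrays 2 of its 3 probe sets had the other sign. Clu, a secreted inhibitor of the terminal complex that astrocytes make in quantity, had 13.65, 13.74 and 13.62 in IκBα-deficient animals and 13.67, 13.59 and 13.66 in controls. Its difference was 0.029 ± 0.069 (SE, interval -0.13 to 0.19) with all arrays and -0.0063 without IκBα-deficient array 2, and 1 of its 4 probe sets had the other sign.

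**Figure D5:**
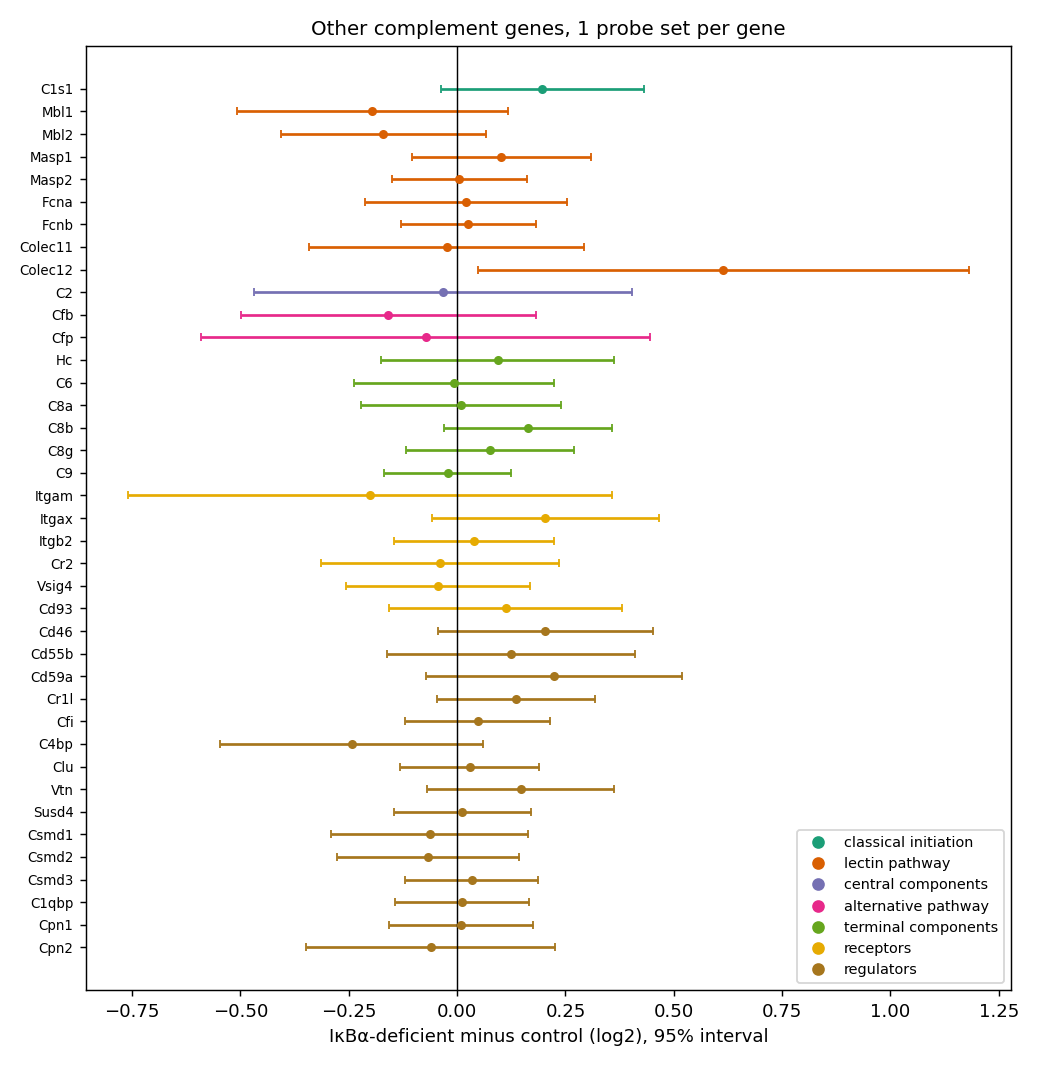
Difference (IκBα-deficient minus control, log2, with 95% interval from limma) of 39 other complement genes, 1 probe set each, coloured by role. Only the interval of Colec12, at 0.61, lies wholly to one side of 0.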

How the data were processed

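The authors deposited 1 log2 value per probe set and array, computed with RMA (which corrects background, equalises quantiles and summarises probes), per the submitters' processing notes. No version of RMA is given in the sources used here. RMA values are relative, so values of different probe sets were set against each other only as differences followed from array to array. The 6 columns were assigned through the sample labels. Of 45101 probe sets, 64 controls, 932 with several symbols and 9160 without one here were left out. The remaining 34945 were tested with limma 3.58.1 in R 4.3.3 (moderated two-sided test on genotype alone) and adjusted by Benjamini-Hochberg, with a threshold of 0.05. Named were all probe sets of the 8 genes, C1s1, Clu, other complement genes with an unadjusted p under 0.05, and the 5 genes most like C1q or C3ar1; further genes of this rule are not reported here. Members and lists were chosen with earlier results of these data known. The labels call the arrays biological repeats. The script was tested on simulated data. Alternatives left out arrays, changed normalization, probe sets or moderation, or added a covariate. With 3 arrays per group, their number sets the precision. Figures were drawn with matplotlib 3.10.9.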

Additional observations from a re-analysis of the deposited data

Results flagged for a closer look

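The control probe sets, which no comparison above uses as an outcome, gave a 3′ minus 5′ value of 2.02 (log2) on IκBα-deficient array 2, above the 0.56 to 0.73 of the control arrays.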

How the results depend on the processing

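None of the 15 complement probe sets passed the threshold under an alternative that tested it. C3ar1 1419482_at was lower in each alternative that gave it a value; it has none without the dimmest 40%, and with the mean per gene it enters as 1 of 3 probe sets. There were 24 settings, and the one with an adjusted p under 0.10 changed only the threshold. In the others, 386 differences of 18 probe sets were recomputed: 348 kept their sign, 38 took the other sign, and 10 probe sets never changed sign. The cause of the changes was not tested.

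Over all probe sets, 4 were called. The count was 2 with the 3′ to 5′ gap, the meninges mean or the vascular mean as a covariate, 2 with a replicate block, 0 with the choroid plexus mean, with the brightest probe set of each gene, without moderation, or without IκBα-deficient array 2 and control array 1, and 1 with the mean per gene or without probe sets of shared codes. It ran from 1 to 7 with 1 array left out, 7 without control array 1. No label says that the repeat numbers mark pairs, so they were used as a block only in an alternative. The deviations of same-numbered arrays from their group means correlated at 0.031, 0.29 and 0.15, which does not decide whether they were pairs. IκBα-deficient arrays 2 and 3 correlated best with the control of their own number, and array 1 with control array 3 (0.23). The replicate block called 0 complement probe sets. Under it the unadjusted p was 0.0080 for Serping1 (0.0944 without it) and 0.0045 for Colec12 (0.0370 without it), with an adjusted p of 0.9435 for each (limma). The number of separated complement probe sets or genes was 5 of 15 with all (8.91% of all probe sets). It was 2 of 8 with the brightest probe set per gene (9.76% of all) and 2 of 8 with the mean per gene (9.07%). Without the dimmest 40% it was 2 of 6 (9.62%), and without shared codes 3 of 13 (8.79%). With 1 array left out it was 5 to 7 of 15, but the share of all probe sets also rose, to 16.7% to 22.3%. Without IκBα-deficient array 2 and control array 1 it was 7 of 15 (30.3% of all).

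In the order gap, meninges, vascular, C1qb 1417063_at differed by 0.12, 0.21 and 0.16, C1qc by 0.11, 0.16 and 0.14, C3ar1 1419483_at by -0.0014, -0.100 and -0.062, and Clu by -0.0033, -0.0042 and -0.0057. C5ar1 1422190_at differed by -0.0022 and -0.0043 with the meninges and vascular means. With the choroid plexus mean, C1qc differed by 0.013, C3ar1 1419483_at by -0.16, C5ar1 1422190_at by -0.44 and Clu by -0.0075. With the microglia mean, C1qa differed by -0.078, C3ar1 1442082_at by -0.013 and Cd55 1460242_at by -0.11. Array weights gave 0.042 for C1qc and -0.028 for C3ar1 1419483_at, and the mean per gene gave 0.15 for C1qb. With arrays left out, the ranges were -0.33 to 0.13 for C1qb 1417063_at, -0.16 to 0.11 for C1qc, -0.017 to 0.18 for C1qa, -0.17 to 0.13 for C3ar1 1419483_at, -0.038 to 0.17 for C3ar1 1442082_at, -0.15 to 0.19 for C5ar1 1422190_at, -0.030 to 0.28 for Cd55 1460242_at and -0.0063 to 0.056 for Clu. Leaving out both IκBα-deficient array 2 and control array 1 gave 0.13 for C1qb 1417063_at and 0.090 for C1qc; this setting and the vascular mean were chosen after seeing the data. Dim probe sets limit what 3 arrays per group can show: 9 of the 15 lay in the dimmest 40%.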
